A study of Zea mays with 48 samples.

Results

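The reciprocal maize hybrids 301x005 and 005x301 were compared with the mean of their inbred parents, the mid-parent, in endosperm dissected 6 days after pollination. The data are the 16 of the series' 48 two-colour arrays whose titles name endosperm and the lines 301 and 005. The groups were endosperm of the inbred lines UH301 and UH005, each selfed, and endosperm of the hybrids from crossing them in both directions. By convention a hybrid's name gives its seed parent before its pollen parent. The plants grew in a glasshouse, the ears were bagged, and the genotypes of a set were pollinated on 1 day. Each of 4 biological replicates was a loop of 4 arrays, in which each hybrid was hybridised against each inbred. Replicates 1 and 3 carried the hybrid RNA in Cy5, and replicates 2 and 4 carried it in Cy3.

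Endosperm nourishes the embryo and, as a product of double fertilisation, receives more genome copies from the seed parent than from the pollen parent. Reciprocal hybrids therefore carry the parental genomes there in unequal doses, and some genes are imprinted, which means that the allele of the seed or of the pollen parent is expressed preferentially. Polycomb proteins, DNA methyltransferases and other chromatin proteins keep such states, and genes for them make up most of the named probes on this array. If expression is additive, the mean of both reciprocal hybrids lies near the mid-parent, and expression away from it is called non-additive. With unequal doses a single hybrid can lie toward its seed parent's line and still be additive.

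A value is a log2 ratio of hybrid over inbred, and the mid-parent difference of a replicate is the mean of its 4 arrays, with 0 at the mid-parent on the log2 scale. The labels do not state which channel was divided by which. Channel 1 was taken as the numerator, the likely reading because each title puts its RNA before the other, and the opposite reading would change the sign of every difference below. No array held a level of a single RNA, so the tissue label could not be checked against marker levels. A probe's ratio in bulk tissue also cannot tell fewer cells of a type from less RNA per cell.

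An array had values for 2084 to 3423 of the 3585 probes that are no control entries. A complete loop was present for 2585, 2254, 2784 and 1823 probes in replicates 1 to 4. The 623 probes whose IDs begin with P_, which hold most of the chromatin genes, had no complete loop in replicate 2, because they had no value on 2 of its arrays. Of all probes, 62 could be named by matching their IDs to gene symbols.

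No probe of the endosperm lay far enough from the mid-parent to pass the test. Limma called 0 of 2076 probes tested (0%), with the lowest adjusted p at 0.570, and 159 probes (7.66%) had an unadjusted p under 0.05, 97 of them above the mid-parent and 62 below it. The hybrids lay below the mid-parent for 1134 probes (54.6%) and above it for 942 (45.4%). All measured loops lay above it for 199 probes (9.59%) and below it for 229 (11%). The median absolute difference was 0.11, against a median standard error of 0.12, while the inbreds differed by a median of 0.24 at the same probes. The inbred difference is built from differences between arrays rather than their mean. It carries more noise, so these medians alone do not show that the inbreds differed more. The 95% interval of the difference lay entirely within 1 log2 unit of the mid-parent for 2001 probes (96.4%). A difference of over 0.5 was measured for 56 probes and of over 1 for 3.

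The replicates split by dye. Across probes, the mid-parent differences of replicates 1 and 3 correlated at r = 0.63 (2302 probes) and those of replicates 2 and 4 at r = 0.41 (1373 probes). Between orientations r was -0.44 for replicates 1 and 2, 0.02 for 1 and 4, -0.42 for 2 and 3, and -0.15 for 3 and 4. Probes are not independent replicates, and these values only describe the loops. The difference between the inbreds, in which a constant dye effect cancels, correlated at r = 0.32 to 0.62 for every pair of replicates, and the difference between the reciprocal hybrids at 0.17 to 0.59.

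**Figure D1:**
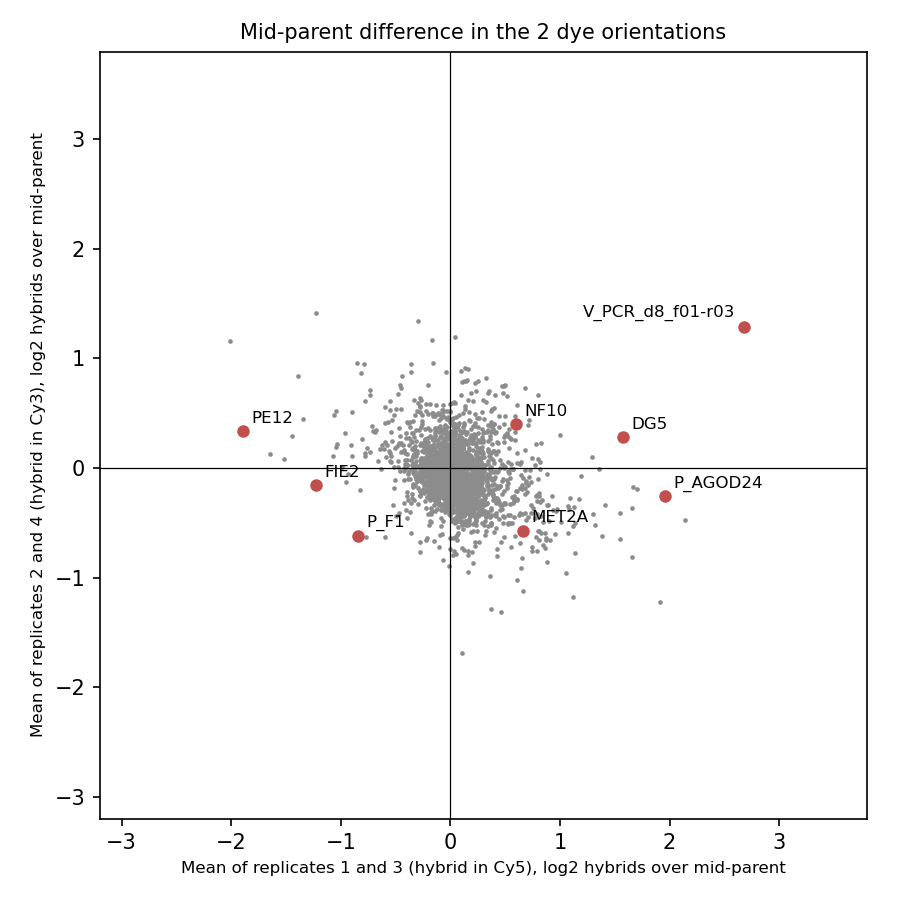
Each point is 1 of the 2076 tested probes, with the mean mid-parent difference (log2) of replicates 1 and 3 on the horizontal axis and of replicates 2 and 4 on the vertical axis. The cloud leans from upper left to lower right (r = -0.29), and V_PCR_d8_f01-r03, DG5 and NF10 lie above 0 on both axes, while P_F1 and FIE2 lie below 0 on both.

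Among the 1103 tested probes with all 4 loops, 236 (21.4%) were above the mid-parent in replicates 1 and 3 and below it in replicates 2 and 4, and 78 (7.07%) showed the opposite. All 4 loops were above for 85 probes (7.71%) and below for 98 (8.88%). MET2A, a DNA methyltransferase gene, is an example of the split. It measured 0.79, -0.31, 0.53 and -0.84 in replicates 1 to 4, so its loops with the hybrid in Cy5 and those with the hybrid in Cy3 did not overlap. Its fitted mid-parent difference was 0.04 ± 0.20 (SE, n = 4 loops, limma adjusted p = 0.949). A dye coefficient, for each probe common to all 12 loops of the series, was part of every fit. A fitted difference need therefore not equal the mean of the loops given with it. Where the orientations are unequal in number it can lie outside them. Over the tested probes the median absolute size of the dye coefficient was 0.10. It exceeded the mid-parent difference at 970 probes (46.7%).

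The probes with the lowest p above the mid-parent were NF10, S_PR8, S_TO95, DG5 and S_PR5, which no source used here names. NF10 measured 0.80, 0.34, 0.39 and 0.46 in replicates 1 to 4, a difference of 0.50 ± 0.10 (SE, n = 4 loops, limma adjusted p = 0.570). All its loops were above the mid-parent and the orientations overlapped. Against inbred 301, NF10 was lower in the hybrids on 7 of 8 arrays, and against inbred 005 it was higher on all 8, so the hybrids lay between the lines and closer to 301.

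The hybrids lay nearer to 301 than to 005 in DG5 too. It measured 1.57 in replicate 1 and 0.28 in replicate 2, with no complete loop in the others, a difference of 0.93 ± 0.20 (SE, n = 2 loops, limma adjusted p = 0.570). Its inbreds differed by 2.51 on the log2 scale, with 301 higher, and those of NF10 by 1.70. For lines so far apart the mean on the linear scale lies above the log2 mid-parent, by 0.49 for DG5 and by 0.24 for NF10. The fitted differences of both probes were above that mark too, but DG5 was below it in replicate 2. The mark for DG5 is also uncertain, since its inbreds differed by 3.32 through 301x005 and by 1.62 through 005x301. Of the 97 probes above the mid-parent at an unadjusted p under 0.05, 16 had inbreds differing by over 1, against 1 of the 62 below it and 127 of all 2076 tested.

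The remaining leaders above the mid-parent had inbreds that differed less. S_PR8 measured 0.45, 0.48, 0.26 and 0.94 in replicates 1 to 4, or 0.53 ± 0.11 (SE, n = 4 loops). S_PR5 measured 0.82, 0.71, 0.16 and 0.79, or 0.62 ± 0.15 (SE, n = 4 loops). Every loop of both was above 0, and the orientations overlapped in S_PR5 but not in S_PR8, which was higher with the hybrid in Cy3. S_TO95, with 0.86, 0.80 and 0.23 in replicates 1, 3 and 4, was lower in the loop with the hybrid in Cy3. The arrays of that loop measured -0.29, -0.55, 0.31 and 1.45. Replicate 2, also with the hybrid in Cy3, had no complete loop for S_TO95, and its arrays measured -1.26, 0.24 and 0.14. The fitted difference of S_TO95 was 0.58 ± 0.12 (SE, n = 3 loops). S_PR8, S_PR5 and S_TO95 each had a limma adjusted p of 0.570.

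**Figure D2:**
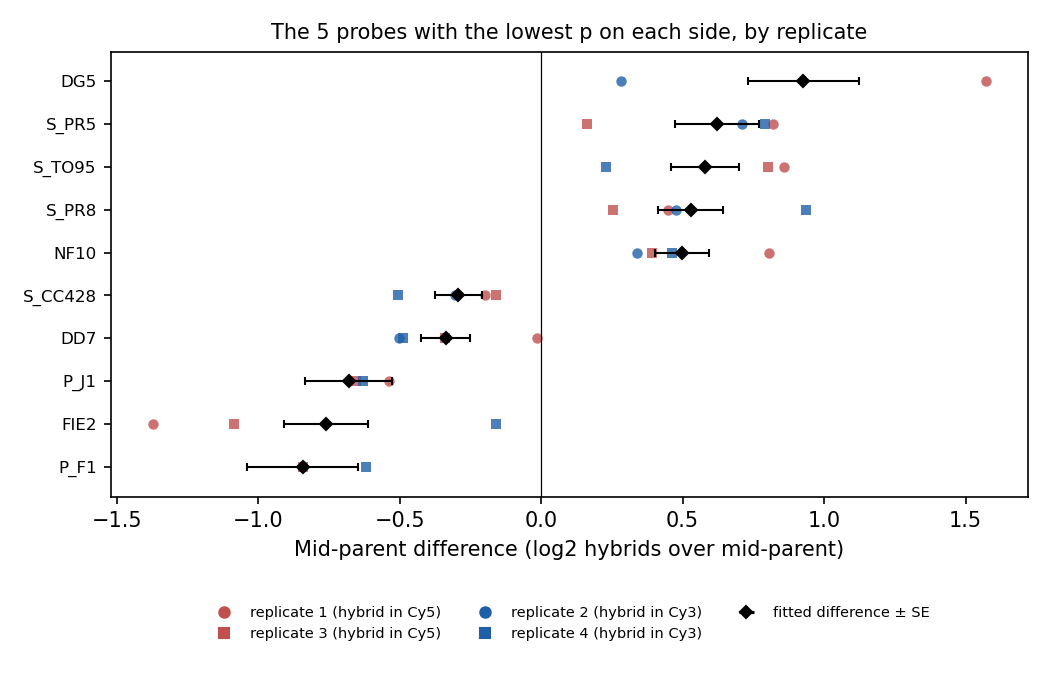
The mid-parent difference (log2) of the 5 probes with the lowest p above and below the mid-parent is shown by replicate, red with the hybrid in Cy5 and blue with it in Cy3, with the fitted difference ± SE as a black diamond. Every loop of each probe lies on 1 side of 0, and in FIE2 replicate 4 (-0.16) stands apart from replicates 1 (-1.37) and 3 (-1.09).

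Below the mid-parent the leaders were FIE2, P_J1, DD7, P_F1 and S_CC428. FIE2, a Polycomb group gene related to extra sex combs of Drosophila and active in maize embryo and endosperm, measured -1.37, -1.09 and -0.16 in replicates 1, 3 and 4. The fit placed it at -0.76 ± 0.15 (SE, n = 3 loops, limma adjusted p = 0.570). Both loops with the hybrid in Cy5 were far below 0 and the only loop with it in Cy3 was near 0. In replicate 2 FIE2 had values on 2 arrays, 0.96 for 301x005 against 301 and 0.95 for 005x301 against 005, both above 0. With this pair counted as a loop the difference was -0.42. The probes P_FIE2_ and P_FIE2_5 have IDs of the same form that matched no gene symbol. Both were below 0 on every array with the hybrid in Cy5 and above 0 on every array with it in Cy3. P_FIE2_ ranged from -4.26 to -1.32 in Cy5 and from 0.87 to 1.60 in Cy3. P_FIE2_5 ranged from -3.83 to -0.25 and from 0.21 to 1.58. Neither had a value against the pollen parent's line with the hybrid in Cy3.

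Taken array by array, the named probe of FIE2 was low in each hybrid against the pollen parent's line. In 301x005 against inbred 005 it measured -1.70, -1.09 and -1.70 in replicates 1, 3 and 4, or -1.45 ± 0.24 (SE, limma adjusted p = 0.0235). It was the 1 of 37 named probes called there, beside 152 of all 2821 probes tested (5.39%). The adjusted p was 0.104 without replicate 1 and 0.0467 without replicate 3, and without replicate 4 no test was possible because 1 orientation was left. In 005x301 against inbred 301 it measured -1.46, -2.20 and -0.32, or -1.13 ± 0.26 (SE, limma adjusted p = 0.0704). Against the seed parent's line the fitted values were -0.34 ± 0.29 for 301x005 over 301 and 0.32 ± 0.24 for 005x301 over 005 (limma adjusted p = 0.962 and 0.856). The arrays split by dye there. For 301x005 over 301 they measured -1.84 and -1.41 with the hybrid in Cy5 and 0.96 and 0.92 with it in Cy3. For 005x301 over 005 they measured -0.49 and 0.36 in Cy5 and 0.95 and 0.45 in Cy3. Against the pollen parent's line, replicate 4 was the only array with the hybrid in Cy3, so seed and pollen parent are partly mixed with dye.

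These FIE2 ratios cannot all hold in a closed loop. A loop gives the difference between the inbreds by 2 ways, through 301x005 and through 005x301, and their gap would be 0 without error. For FIE2 the gap was 0.84, 2.24 and 3.40 log2 units in replicates 1, 3 and 4, always with the same sign. Among all probes with a complete loop a gap at least as large was found at 19.1%, 3.84% and 2.25% of probes in these replicates, where the median absolute gap was 0.33, 0.27 and 0.43. Averaged over loops, 10 of the 2076 tested probes, FIE2 among them, had a gap of at least 2.16. Gaps over 1.5 in single loops were also found for other probes given here. Among them were -2.93 for S_PR8 and -2.60 for S_TO95 in replicate 4, and -2.65 for S_PR5 in replicate 2. GTE102 had gaps of 1.86 and 1.58 in replicates 3 and 4. GLN4 had -4.04 and GAPDH -2.62 in replicate 2, and NFA102 had -2.10 in replicate 4. For MET1 the gaps were -2.23, -2.29 and 2.29 in replicates 1 to 3. The source of the gaps and their part in these differences were not tested.

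The mid-parent differences of P_F1 and P_J1 were closer together over loops. P_F1 measured -0.85, -0.84 and -0.62 in replicates 1, 3 and 4, or -0.84 ± 0.20 (SE, n = 3 loops), and it was below 0 on all 14 arrays that measured it. P_J1 measured -0.54, -0.66 and -0.63, or -0.68 ± 0.15 (SE, n = 3 loops), with the orientations overlapping and loop gaps of 0.75, 1.39 and 0.54. DD7 measured -0.02, -0.50, -0.34 and -0.49 in replicates 1 to 4, or -0.34 ± 0.09 (SE, n = 4 loops), lower in both loops with the hybrid in Cy3. S_CC428 measured -0.20, -0.30, -0.16 and -0.51, or -0.29 ± 0.08 (SE, n = 4 loops), with the same order. None of these probes is named, and each had a limma adjusted p of 0.570.

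Of the 62 named probes 28 could be tested, 7 above the mid-parent and 21 below it, with a median of -0.09 against -0.02 over all tested probes. Limma called 0 of the 28, and 3 had an unadjusted p under 0.05. The P_ probes, which hold most of them, had a median of -0.07, with 141 of 214 tested below the mid-parent (65.9%), so most probes of that set were below it. All loops were above 0 in 0 of the 28 named probes and below it in 9. The same held above for 28 (13.1%) and below for 50 (23.4%) of the 214 tested P_ probes, most of which had 3 loops, and for 9.59% and 11% of all tested probes.

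**Figure D3:**
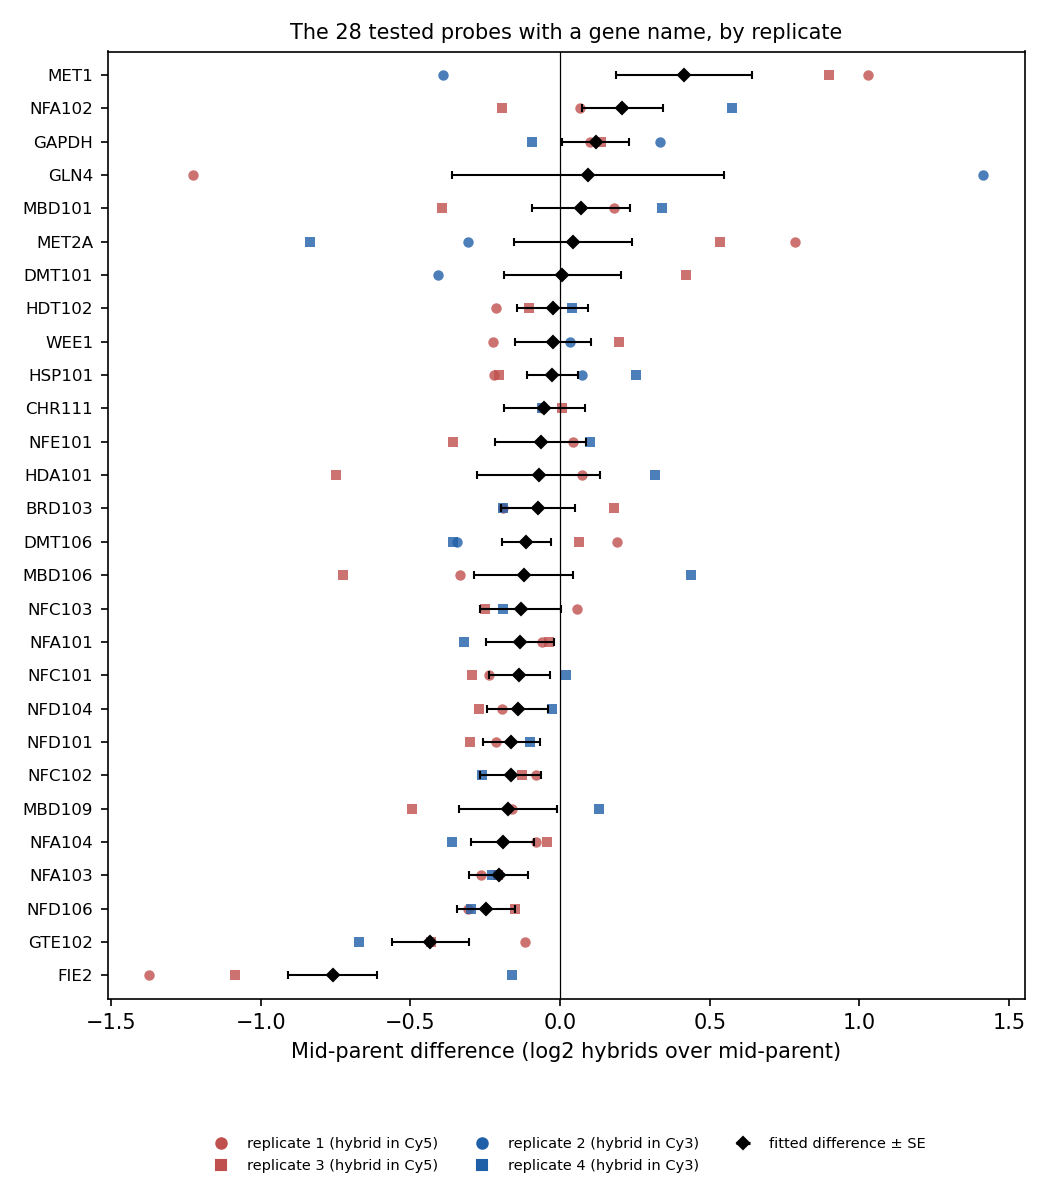
The mid-parent difference (log2) of the 28 tested probes with a gene name is shown by replicate, red with the hybrid in Cy5 and blue with it in Cy3, with the fitted difference ± SE as a black diamond. FIE2 (-0.76) and GTE102 (-0.43) lie farthest below 0 and MET1 (0.41) farthest above, while most fitted values lie within 0.25 of the mid-parent.

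Of the 7 probes for DNA methyltransferases, which copy or set cytosine methylation, 4 could be tested, 3 of them above the mid-parent, and none passed. MET1, the probe of a methyltransferase that maintains CG methylation, measured 1.03, -0.39 and 0.90 in replicates 1 to 3, or 0.41 ± 0.23 (SE, n = 3 loops, limma adjusted p = 0.688). It was high in the loops with the hybrid in Cy5 and low in that with the hybrid in Cy3. The probes S_DMT101 and P_DMT101 match the same gene. S_DMT101 measured -0.41 and 0.42 in replicates 2 and 3, or 0.01 ± 0.20 (SE, n = 2 loops), with the sign of MET1 in both, and P_DMT101, which could not be tested, measured -0.41 and -0.65 in replicates 1 and 3. P_DMT101 thus had the opposite sign to MET1 in both of its loops. DMT106 measured 0.19, -0.34, 0.06 and -0.36 in replicates 1 to 4, or -0.11 ± 0.08 (SE, n = 4 loops, limma adjusted p = 0.718), again split by dye. DMT105 had 2 complete loops, 0.27 in replicate 3 and -0.86 in replicate 4, and was not tested.

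Of the genes that read or remove chromatin marks none passed. The 3 tested probes for methyl-CpG-binding proteins ranged from -0.17 for MBD109 to 0.07 for MBD101. MBD101 measured 0.18, -0.39 and 0.34 in replicates 1, 3 and 4 and crossed 0 within 1 orientation. MBD108, which had too few residual degrees of freedom for the test, measured -0.17, -1.07 and -0.96 in the same replicates, all below 0. Both tested histone deacetylase probes, HDA101 and HDT102, were closer to the mid-parent than 1 standard error. The tested probes P_HDA105, P_HDA116 and P_HDA114 have IDs of the same form that matched no gene symbol, so they are not counted with them. P_HDA105 measured 0.29, 0.28 and 0.25 in replicates 1, 3 and 4, or 0.30 ± 0.11 (SE, n = 3 loops, limma adjusted p = 0.634), above 0 in every loop. P_HDA116 was at -0.39 ± 0.29 and P_HDA114 at 0.08 ± 0.14 (SE). GTE102, a bromodomain gene of the kind that binds acetylated histones, measured -0.12, -0.43 and -0.67 in replicates 1, 3 and 4, or -0.43 ± 0.13 (SE, n = 3 loops, limma adjusted p = 0.570). All its loops were below 0, lowest in the loop with the hybrid in Cy3. BRD103, the other tested bromodomain probe, measured -0.07 ± 0.12 (SE).

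Nucleosome assembly factors, the chaperones that place histones on DNA, were below the mid-parent for 6 of 7 tested probes, with a median of -0.14. In 4 of the 7 all loops were below it, as in 23.4% of all tested P_ probes and 11% of all tested probes, and none had an unadjusted p under 0.05. NFA103 measured -0.26, -0.21 and -0.23 in replicates 1, 3 and 4, or -0.21 ± 0.10 (SE, n = 3 loops), close together in both orientations. NFA104 measured -0.08, -0.05 and -0.36, or -0.19 ± 0.11 (SE, n = 3 loops). NFC102 measured -0.08, -0.13 and -0.26, or -0.17 ± 0.10 (SE, n = 3 loops), and in both the loop with the hybrid in Cy3 was lowest. NFC101 measured -0.24, -0.29 and 0.02, with the opposite order, and NFA102, with 0.07, -0.20 and 0.57, was the member above the mid-parent at 0.21 ± 0.14 (SE, n = 3 loops). Limma's adjusted p lay between 0.661 and 0.728 for these 5. In replicate 4 NFA102 measured 2.69 for 005x301 against 301, while the other arrays of that loop measured 0.16, -0.06 and -0.49.

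The 4 tested probes for high mobility group and related factors, which bend DNA or bind nucleosomes, were all below the mid-parent, with a median of -0.15. NFD106 measured -0.31, -0.15 and -0.30 in replicates 1, 3 and 4, or -0.25 ± 0.10 (SE, n = 3 loops, limma adjusted p = 0.645). The orientations overlapped, and NFD106 was below 0 on all 14 arrays that measured it. NFD101 measured -0.22, -0.30 and -0.10, or -0.16 ± 0.10 (SE, n = 3 loops). NFD104 measured -0.19, -0.27 and -0.03, or -0.14 ± 0.10 (SE, n = 3 loops), so that both were nearest to 0 in the loop with the hybrid in Cy3.

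The imprinted and endosperm genes on the array could hardly be tested, because FIE2 was the only 1 of the 4 with loops in both orientations. FIE1, the Polycomb gene whose maternal allele is active in maize endosperm, had 1 complete loop, -0.66 in replicate 3, and a median of -0.55 over 12 arrays, 10 of them below 0. MEG1, a maternally expressed gene of the transfer cells, measured -0.03 and -0.66 in replicates 1 and 3. NRP1, also expressed from the maternal allele, had 1 loop at -2.32 in replicate 1, with 4 arrays above 0 and 6 below. The complete loops of these 3 genes all had the hybrid in Cy5, so dye and hybrid cannot be told apart in them.

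The genes outside chromatin did not pass either. GAPDH, a glycolytic gene, measured 0.10, 0.33, 0.14 and -0.09 in replicates 1 to 4, or 0.12 ± 0.11 (SE, n = 4 loops, limma adjusted p = 0.769). GLN4, a glutamine synthetase, measured -1.23 in replicate 1 and 1.41 in replicate 2, or 0.09 ± 0.45 (SE, n = 2 loops), with a sign that followed the dye and a 95% interval from -1.01 to 1.20. WEE1, whose kinase holds back mitosis, and the chaperone gene HSP101 were closer to 0 than 1 standard error.

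The distance from the mid-parent was then taken for each hybrid alone. These 2 comparisons share the inbred RNAs, so their values are given side by side. Because the parental doses are unequal in endosperm, a single hybrid off the mid-parent need not be non-additive. For 301x005 limma called 0 of 2581 probes (0%), with the lowest adjusted p at 0.0839 and 377 probes (14.6%) at an unadjusted p under 0.05, of which 268 were above and 109 below. For 005x301 it called 0 of 2331 (0%), with the lowest adjusted p at 0.346 and 180 probes (7.72%) at an unadjusted p under 0.05. The result for 301x005 depended on the probes entered, since 44 passed when only probes with a value on all 16 arrays were tested.

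In 301x005 the probe with the lowest p was KG5, unnamed, with 1.71, 0.87 and 1.89 in replicates 1 to 3. It was 1.41 ± 0.16 above the mid-parent (SE, n = 3 loops, limma adjusted p = 0.0839), and lowest in the loop with the hybrid in Cy3. KC1 measured 1.00, 0.81, 0.67 and 1.04 in replicates 1 to 4, or 0.88 ± 0.13 (SE, n = 4 loops, limma adjusted p = 0.0839), with the orientations overlapping. RG6, OG11 and QD3, also unnamed, were above the mid-parent in every loop. On the other side S_CC842 measured -0.52, -1.10, -0.29 and -1.15, or -0.76 ± 0.14 (SE, n = 4 loops, limma adjusted p = 0.0839), lower with the hybrid in Cy3. FIE2 in 301x005 was at -1.01 ± 0.20 and in 005x301 at -0.51 ± 0.19 (SE, n = 3 loops, limma adjusted p = 0.0970 and 0.606). MBD108, a methyl-CpG-binding protein gene, measured -0.28, -0.95 and -1.15 in replicates 1, 3 and 4 of 301x005, or -0.82 ± 0.21 (SE, n = 3 loops, limma adjusted p = 0.140).

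In 005x301 the leaders had no gene names. In order of p, those above the mid-parent were DG5, P_AGOD24, GD8, PA8 and UE9. Those below it were P_687-006H08, RD8, OD2, KH10 and P_J1. P_AGOD24 was at 1.28 ± 0.17 and P_687-006H08 at -1.20 ± 0.20 (SE, n = 3 loops, limma adjusted p = 0.346 for both). DG5 measured 2.06, 0.11 and 1.14 in replicates 1, 2 and 4, or 1.30 ± 0.20 (SE, n = 3 loops, limma adjusted p = 0.346). GD8 measured 0.62, 0.58 and 0.80 in replicates 1 to 3, or 0.67 ± 0.13 (SE, n = 3 loops), close together in both orientations. P_J1 measured -0.43, -0.78 and -1.02 in replicates 1, 3 and 4, or -0.84 ± 0.15 (SE, n = 3 loops), beside -0.49 ± 0.26 in 301x005. Its limma adjusted p was 0.346 in 005x301 and 0.436 in 301x005.

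Against each inbred alone the hybrids differed from the pollen parent's line and not detectably from the seed parent's. This set of comparisons was added after the data had been seen. In 301x005, limma called 152 of 2821 probes against inbred 005 (5.39%), 131 higher and 21 lower in the hybrid, and 0 of 3150 against its seed parent 301 (0%), where 150 had an unadjusted p under 0.05. In 005x301 it called 95 of 2727 against inbred 301 (3.48%), 9 higher and 86 lower, and 0 of 3082 against its seed parent 005 (0%), where 189 had an unadjusted p under 0.05. The median absolute difference was 0.26 and 0.28 against the pollen parent's line and 0.15 and 0.17 against the seed parent's. The median standard error was also larger, 0.22 and 0.25 against 0.20 and 0.20. The arrays against the pollen parent's line held fewer values in replicate 2 (2779 and 2756, against 3256 and 3176) and replicate 4 (2298 and 2084, against 3423 and 3342). In replicate 3 the numbers were alike. The part of array quality in these medians was not tested. Neither the difference between the counts nor the part of unequal parental doses in it was tested. The counts depended on the replicates: 152 became 23 without replicate 1, 39 without replicate 3 and 62 without replicate 4, and 95 became 0 without any 1 of these 3. Without replicate 2 they were 119 and 109.

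**Figure D4:**
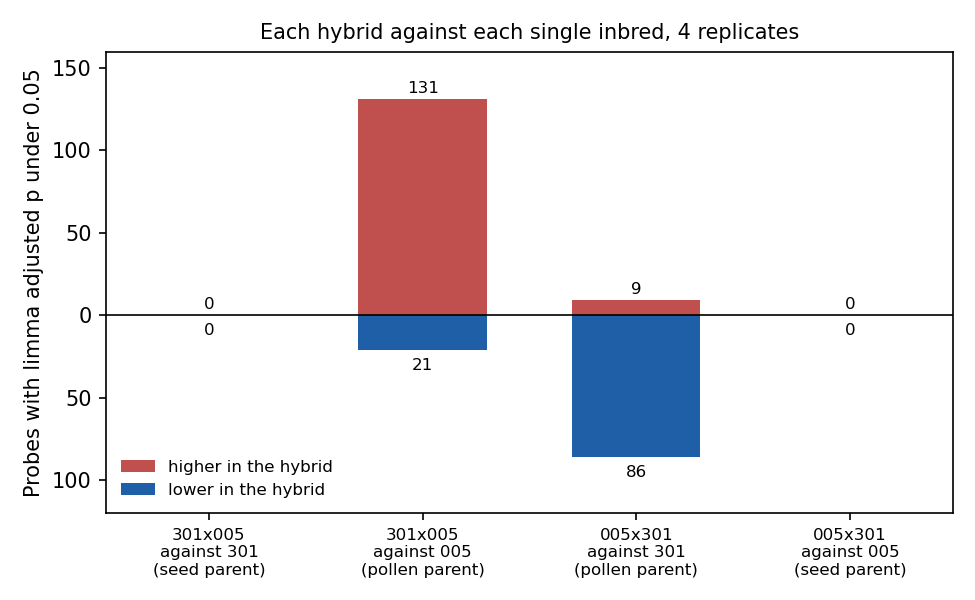
Bars give the number of probes with a limma adjusted p under 0.05 that were higher (upwards) or lower (downwards) in a hybrid than in 1 inbred line. All called probes lie in the 2 comparisons with the pollen parent's line, 131 and 21 for 301x005 against 005 and 9 and 86 for 005x301 against 301.

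Single probes showed this placement evenly over loops. KC1 exceeded inbred 005 in 301x005 by 1.86, 1.92, 1.63 and 1.94 in replicates 1 to 4, or 1.84 ± 0.16 (SE, n = 4 loops, limma adjusted p = 0.00722). RA7 exceeded it by 1.44, 1.67, 1.20 and 2.40, or 1.68 ± 0.18 (SE, n = 4 loops, limma adjusted p = 0.00722). In 005x301 against inbred 301, RA7 measured -1.98, -1.19, -1.62 and -1.76, or -1.64 ± 0.22 (SE, n = 4 loops, limma adjusted p = 0.0261), so each hybrid lay away from the line that gave the pollen. S_CC842 also lay away from the pollen parent's line in 301x005, but with the opposite sign to KC1 and RA7. It was lower than inbred 005 in all loops, at -1.44 ± 0.22 (SE, n = 4 loops, limma adjusted p = 0.00912). MH10 was higher in 005x301 than in inbred 301 by 1.29 ± 0.21 (SE, n = 4 loops, limma adjusted p = 0.0261).

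A hybrid outside the range of both inbreds was not found. Limma called 0 of 2752 probes for 301x005 (0%), with 18 (0.654%) at an unadjusted p under 0.05, and 0 of 2619 for 005x301 (0%), with 13 (0.496%). In 301x005 the lowest p belonged to S_RL9, at -3.44 ± 0.68 against 301 and -3.41 ± 0.83 against 005, and to S_CC5, above both lines by 0.69 ± 0.19 and 0.91 ± 0.25 (SE, limma adjusted p = 1 for both). QB7 was below both, at -0.51 ± 0.19 against 301 and -0.50 ± 0.15 against 005 (SE, limma adjusted p = 1). In 005x301 KA9 was above both, by 0.93 ± 0.30 and 0.61 ± 0.20, and P_J1 below both, at -1.10 ± 0.35 and -0.58 ± 0.14 (SE, limma adjusted p = 1).

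Few probes kept 1 sign on every array. Of the 2946 probes with values on 12 or more of the 16 arrays, 4 were above 0 on all of them (0.136%) and 7 below (0.238%). V_PCR_d8_f01-r03 was above 0 on all 16 arrays, from 0.09 to 4.01 with a median of 1.98. The loops gave 2.39, 0.93, 2.97 and 1.64 in replicates 1 to 4, or 1.98 ± 0.52 (SE, n = 4 loops, limma adjusted p = 0.570), the largest of all tested. S_CC796 was also above 0 on 16 arrays and measured 0.60, 0.33, 0.59 and 0.62, or 0.53 ± 0.15 (SE, n = 4 loops, limma adjusted p = 0.570). KB12, S_CC228 and JE6 were below 0 on 16 arrays, with medians of -0.30, -0.17 and -0.16.

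S_RL9 measured between -4.60 and -1.32 on 12 arrays, with a median of -3.46, and with 1 complete loop its mid-parent difference could not be tested. It was below 0 on all 39 arrays of the series that measured it, the only one of the 2939 probes with values on 30 or more arrays to keep 1 sign. S_RL8 was below 0 on 10 of 10 arrays of this endosperm, with a median of -3.32. Of the control entries, some also kept 1 sign. The entry MC4 was below 0 on all 16 arrays (median -3.76) and MC5 above 0 on all 16 (median 3.92), in both dye orientations. Whether S_RL9, S_RL8 or V_PCR_d8_f01-r03 shares anything with the controls was not tested.

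**Figure D5:**
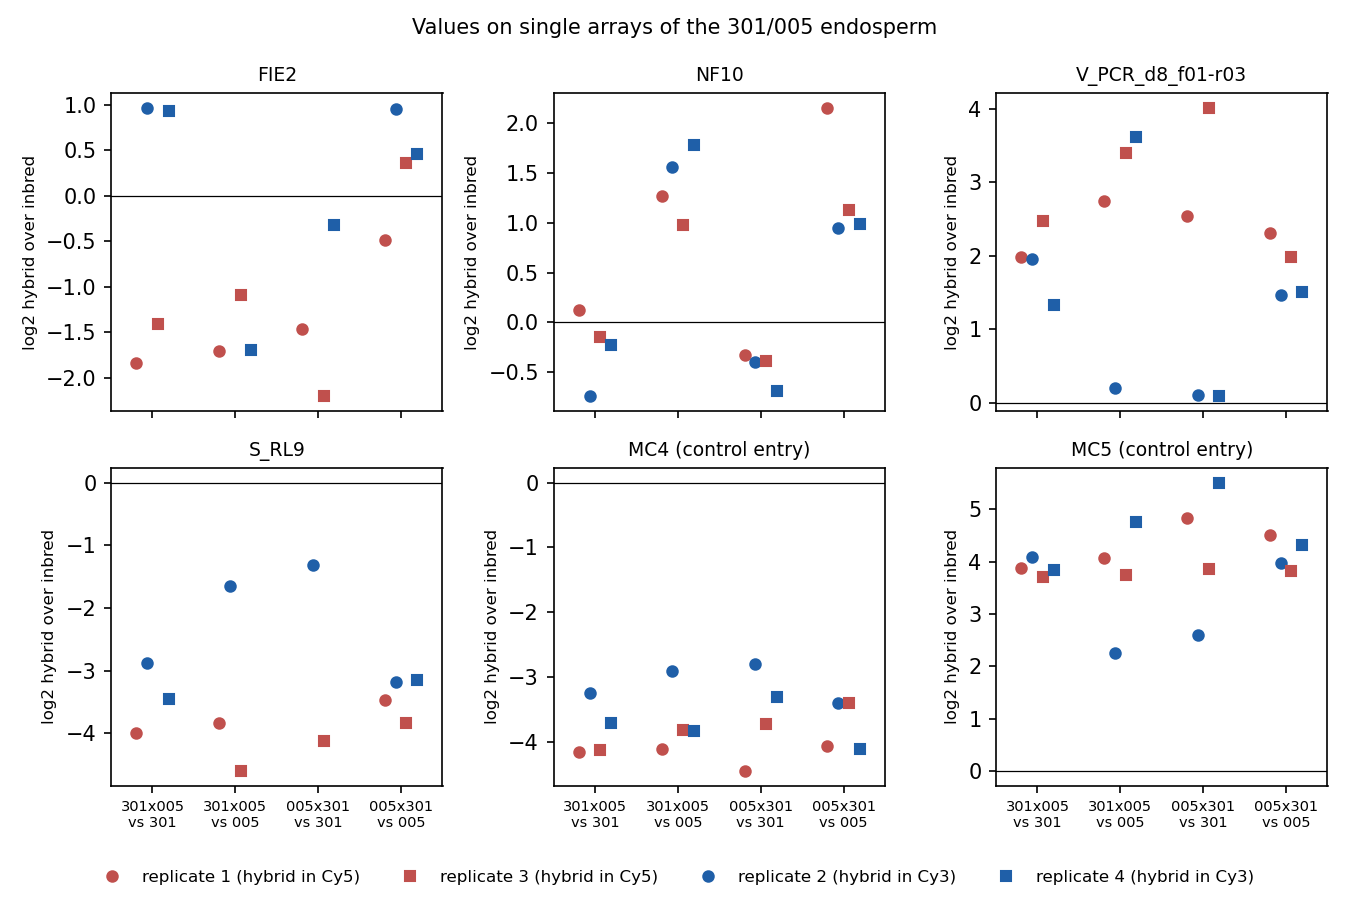
The log2 ratio of hybrid over inbred is shown on single arrays, grouped by the hybrid and the inbred, red with the hybrid in Cy5 and blue with it in Cy3. S_RL9 and the control entry MC4 lie below 0 and V_PCR_d8_f01-r03 and the control entry MC5 above 0 on every array shown, NF10 changes side with the inbred, and FIE2 is below 0 on every array against the pollen parent's line.

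The mid-parent difference was compared with that in embryos of the same cross and in endosperm of the cross 301/250. Between endosperm and embryo limma called 0 of 1697 probes (0%), with the lowest adjusted p at 0.775 and 88 (5.19%) at an unadjusted p under 0.05. NF10 was higher in endosperm by 0.64 ± 0.15 (SE), with all 4 endosperm loops above 0 and embryo loops of 0.10, -0.25 and -0.13. NFA103 was lower in endosperm by 0.40 on the log2 scale, at -0.40 ± 0.15 (SE, limma adjusted p = 0.943), and FIE2 could not be compared. Between the endosperms of the crosses limma called 0 of 1832 probes (0%), with the lowest adjusted p at 0.998 and 23 (1.26%) at an unadjusted p under 0.05. FIE2, with -0.16 and 0.23 in the loops of 301/250, differed by -0.80 ± 0.23 and S_PR8 by 0.58 ± 0.20 (SE, limma adjusted p = 0.998 for both). For no probe was the distance from the mid-parent shown to be particular to this endosperm.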

How the data were processed

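For each probe the deposited table gives a log ratio of both channels of an array, and these values were read as log2. How the authors corrected the background and normalized, and the log base, are not given in the sources used, and array medians near 0 led to no further centring. Per the labels' protocols, mRNA bound to oligo-dT beads was copied with a template switch, amplified by long-distance PCR and labelled with random primers. Amplification can change ratios between transcripts. No intensities were used, so the signal under each ratio is unknown, and precision is limited by the number of arrays.

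Ratios were turned to hybrid over inbred and 7 control entries left out. The loop, which the labels call a biological replicate, was the unit. All 12 loops of the series were fitted per probe by least squares with 1 coefficient per cross and tissue and a dye coefficient, and tested with limma 3.58.1 (moderated variances) under R 4.3.3. A probe was tested with at least 2 complete loops, of both orientations, and at least 3 residual degrees of freedom. P-values are two-sided. The Benjamini-Hochberg adjustment covered every probe tested, and 0.05 was the threshold. The variance prior was taken over all probes that could be fitted. SEs are from this fit. A hybrid outside both inbreds had to differ from each in 1 direction, with the larger p counted. The procedure was tested on simulated data.

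Gene names were matched by probe ID to RefSeq symbols and synonyms of assembly Zm-B73-REFERENCE-NAM-5.0. Named were the 10 lowest p on each side among listed genes, the 5 lowest on each side among all probes, all measured imprinted and DNA methylation genes, and the 3 largest on each side among genes with loops of 1 sign. Other probes were picked after their values were seen. The members and gene lists were chosen with earlier results of these data known. Replicate numbers pair the arrays of a loop, which share RNAs, and the replicate is already the unit of the fit. The alternatives were centring, scaling, complete probes, a spread from the endosperm's own loops, no dye term, single arrays with and without the loop as replicate block, each replicate left out, and balanced pairs of arrays. The prior over tested probes was added later.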

Additional observations from a re-analysis of the deposited data

Results flagged for a closer look

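S_PR5 was singled out because 1 of its 4 loops stood apart: replicate 3 measured 0.16, while the others lay between 0.71 and 0.82. In all, 11 groups of 4 were examined, and chance marks about 1 in 20. The control entries MC4 (median -3.76) and MC5 (median 3.92) were singled out as signal in rows that no comparison used. Each had 1 sign on all 16 arrays of the 301/005 endosperm, and MC4 was below and MC5 above 0 on every array of the embryos of this cross and of both tissues of the cross 301/250. The entries MC1 and MC3 lay near 0, with medians of -0.11 and -0.11.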

How the results depend on the processing

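The count of 0 for the mid-parent difference held under centring, scaling, probes on all 16 arrays, own loops, no dye term, balanced pairs, each replicate left out and the added prior. It became 4 with single arrays and the replicate block (NF10, P_605-004D02, S_CC1047 and V_PCR_d8_f01-r03) and 36 without the block, where arrays of a loop that share RNAs count as independent. For 301x005 against the mid-parent 0 became 44 with probes on all 16 arrays, where fewer probes were tested, 56 with the replicate block and 100 without it. For 005x301 it became 3 and 17, and 0 to 1 with a replicate left out. For 301x005 outside both inbreds it became 1 with the block, and for endosperm minus embryo 6 without it. The single-inbred comparisons, added after seeing the data, moved most: 152 (301x005 against 005) became 94 scaled, 65 with own loops, 374 with the block, 398 without it and 23 to 119 with a replicate left out; 95 (005x301 against 301) became 36, 165, 271, 308 and 0 to 109. For 301x005 against 301, 0 became 3 in both single-array fits and 0 to 1 with a replicate left out. For 005x301 against 005, 0 became 1 with probes on all 16 arrays, 1 with own loops, 11 with the block and 12 without it. Of 278 values of the probes chosen by the naming rule, 262 kept direction and side of the threshold under these settings. Another 8, all of probes without a gene name, passed it in single-array fits, and 8 changed sign: MET2A without replicate 1 (-0.038) and 2 (-0.026), in a range of -0.038 to 0.18 with a replicate left out, GLN4 with the block (-0.16), without it (-0.14) and with balanced pairs (-0.24), and DMT101 in the same settings (-0.014, -0.0092 and -0.073). The cause was not tested.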

Other observations

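Named probes that could not be tested still had loop values, most of them with the hybrid in Cy5. CENH3, the histone variant of centromeres, measured -1.32 in replicate 1 and -1.46 in replicate 3, with 8 of 12 arrays below 0. HDA113, a histone deacetylase gene, measured 0.52 and 0.46 in the same replicates and was above 0 on 11 of 13 arrays. MRP1, a MYB-related gene of the transfer cells, measured -1.21 and -0.50, with 8 of 13 arrays below 0. SDG101, a SET domain gene, measured -1.77 in replicate 1, its only complete loop. These 4 were chosen after their values were seen, and dye and hybrid cannot be told apart in their loop values. HDA113 had single arrays of both orientations in 301x005 against inbred 301, at 0.64 ± 0.19 (SE, limma adjusted p = 0.807). Most loop values of the other untested named histone deacetylase probes were below 0, all with the hybrid in Cy5. In replicates 1 and 3 HDA102 measured -0.37 and -0.37, HDA108 -0.74 and -0.62, and HDA106 -0.09 and 0.26. HDA110 measured -2.04 in replicate 1.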
